A study of Drosophila melanogaster with 33 samples.

Results

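M1BP and GAF, a pair of promoter-binding factors, were compared by their ChIP-seq peak lists in 1 Drosophila melanogaster cell line, S2. Peaks on the 6 chromosome arms (2L, 2R, 3L, 3R, 4 and X) were kept, which left 5719 of 7157 M1BP peaks and 5407 of 7083 GAF peaks, from a series of 13 lists with 94396 peaks in all. Peaks of the 2 lists that overlapped by 1 bp or more were merged, giving 9700 regions. Of these, 1329 (13.7%) held both factors, 4312 (44.5%) held M1BP alone and 4059 (41.8%) held GAF alone.

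M1BP (Motif 1 binding protein) is a zinc-finger protein that binds the Motif 1 element of core promoters, many of them at broadly expressed genes. GAF (GAGA factor, the product of Trl) binds GA-rich sequence, helps to keep promoters free of nucleosomes and also binds Polycomb response elements. Both factors are known from promoters where RNA polymerase II pauses after initiation. Rpb3 is a polymerase II subunit, and Ser2P is the phosphorylated form of the polymerase's tail found during elongation. Polycomb proteins keep genes silent, and among them dRing works in the complex PRC1 while E(z) methylates histone H3 within PRC2.

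The cells were S2-DRSC, a line derived from late embryos and labelled wild type, which received 10 µM copper sulphate for 24 h before chromatin was prepared. The study set them against S2-AbdA cells, the same line stably transfected with HA-tagged AbdA (the Hox protein Abdominal-A) and given the same copper treatment. M1BP, GAF, Rpb3, Ser2P, dRing and E(z) each had 2 replicate samples in S2 cells, and the labels name 1 shared peak list for both, so there was no spread between replicates and no test could be made. Whether the replicates were separate cultures is not stated in the labels.

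Read counts are not part of these lists, and the depth behind each peak is unknown. Intervals are 95% intervals (exact Clopper-Pearson for shares, Newcombe for differences of shares, exact order statistics for medians). They cover counting error only and treat neighbouring regions as independent, which they are not. The authors' peak score has no stated unit and was used only to rank peaks within a list. Peak lists cannot show whether a cell's marker genes are expressed, so the cell label was not checked, and regions are named by position on build dm3 alone, with no genes assigned. All 6 S2 lists carry the same input code in the labels (code B), and what a shared input adds to the overlaps was not tested.

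About 1 peak in 4 of each factor overlapped a peak of the other. GAF lay on 1407 of 5719 M1BP peaks, or 24.6% (23.5 to 25.7%), and M1BP lay on 1348 of 5407 GAF peaks, or 24.9% (23.8 to 26.1%). Cut into 1 kb bins, the arms held M1BP in 7.44% of bins, GAF in 8.06% and both in 1.92%. When only pairs with centres within 250 bp counted, the shares were 14.0% of M1BP peaks and 14.9% of GAF peaks. When each list was reduced to its higher-scoring 50%, they were 11.4% and 12.1%.

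The factors ranked their shared peaks differently. Among M1BP peaks, the share with a GAF peak was 29.5% (26.8 to 32.2%) in the lowest of 5 score groups of about equal size and 15.4% (13.3 to 17.6%) in the highest, with the groups between at 27.4%, 26.2% and 24.7%. Among GAF peaks, the share with an M1BP peak was 24.0% (21.5 to 26.7%) in the lowest of 5 GAF score groups, 19.1% (16.8 to 21.5%) in the next group up and 32.5% (29.7 to 35.4%) in the highest. The strongest M1BP peaks were thus the least often shared, and the strongest GAF peaks the most often. The median M1BP score was 47.3 (43.3 to 50.2) at peaks shared with GAF and 63.4 (60.0 to 66.6) at M1BP peaks alone. The median GAF score was 93.4 (84.9 to 107.1) at peaks shared with M1BP and 68.3 (64.7 to 71.7) at GAF peaks alone.

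Shared peaks were also wider than unshared ones. M1BP peaks had a median width of 577 bp (558 to 602) where they overlapped GAF and 505 bp (492 to 517) where they did not. GAF peaks had a median of 842.5 bp (793 to 886) where they overlapped M1BP and 634 bp (621 to 650) where they did not. Merged regions with both factors had a median of 1050 bp (991 to 1103), and 86 of them held several peaks of 1 factor. A wider peak can overlap the other factor more readily, and a merged region spans all its peaks. What the widths of shared peaks and regions owe to this was not tested. Since a wider interval can also meet more partner peaks, the partner shares below are also given for regions of 400 to 1000 bp.

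Within the shared regions the centres of the M1BP and GAF peaks lay a median of 194 bp apart (172 to 215, n = 1407 M1BP peaks). Of these M1BP peaks, 378 (26.9%) lay within 50 bp of the GAF centre and 803 (57.1%) within 250 bp. The Rpb3 share differed with centre distance. Among the 378 closest pairs, 39.4% (34.5 to 44.5%) lay in a region with Rpb3, the polymerase subunit. Among the 264 pairs more than 100 and up to 250 bp apart, 75% (69.3 to 80.1%) did, and the 3 bins beyond 250 bp held 74.8%, 80.5% and 77.9%.

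The closest pairs carried another combination. Of the 378, 45.2% (40.1 to 50.4%) lay in regions that held Ser2P, dRing and E(z) peaks but no Rpb3 peak, against 11.0% (7.48 to 15.4%) of the 264 pairs at 100 to 250 bp. Such regions lack Rpb3 by definition, so their share lowers the Rpb3 share among the closest pairs. The low Rpb3 share there is therefore not a separate result. In regions with that combination the median centre distance was 44.5 bp (38 to 52, n = 309), and in the other shared regions it was 244.5 bp (220 to 268, n = 1098). The combination was singled out after its values were seen and is described further below.

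**Figure D1:**
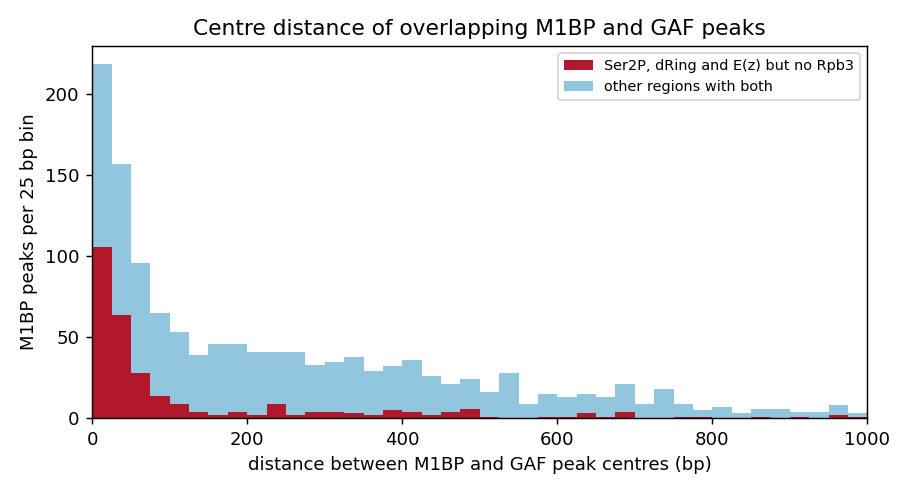
Histogram of the distance in bp (x axis, 25 bp bins, shown up to 1000 bp) between the centre of each M1BP peak and that of the nearest overlapping GAF peak, as the number of M1BP peaks per bin (y axis). Bars are stacked, with regions that hold Ser2P, dRing and E(z) but no Rpb3 in red and other shared regions in blue; the red part is mostly within 50 bp, where it makes up 171 of 378 peaks.

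Rpb3, the first of the 4 partners, was more frequent at regions with M1BP alone than at regions with GAF alone. Rpb3 peaks lay at 63.4% (60.8 to 66.0%) of regions with both factors, 64.9% (63.4 to 66.3%) of regions with M1BP alone and 43.6% (42.0 to 45.1%) of regions with GAF alone, where 12.6% of 1 kb bins held one. M1BP alone exceeded GAF alone by 21.3 percentage points (19.2 to 23.4). Regions with both differed from M1BP alone by -1.46 points, with an interval of -4.44 to 1.47 that includes 0. Both comparisons changed when width was limited. Among regions of 400 to 1000 bp the Rpb3 share was 51.9% (47.7 to 55.9%) with both, 70.8% (68.8 to 72.6%) with M1BP alone and 39.0% (37.0 to 41.0%) with GAF alone. These sets include regions with Ser2P, dRing and E(z) but no Rpb3. With both factors such regions had a median width of 733.5 bp, against 1131 bp for the others. Without them, at all widths, Rpb3 lay at 80.8% of regions with both and 70.5% with M1BP alone. The width limit was not applied without them, so width and that combination were not separated for regions with both. M1BP alone minus GAF alone was positive on every arm, from 13.0 points on chromosome 4 (-6.53 to 30.9, 44 and 38 regions) to 23.9 points on X (18.8 to 28.7).

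The Ser2P list was shorter than the Rpb3 list, with 1670 peaks on the arms against 9314, so shares of these partners are not compared with each other. Ser2P peaks lay at 45.7% (43.0 to 48.5%) of regions with both factors, 20.3% (19.1 to 21.5%) with M1BP alone and 10.3% (9.36 to 11.2%) with GAF alone, where 3.97% of bins held one. M1BP alone exceeded GAF alone by 10.0 points (8.52 to 11.6). Among the higher-scoring 50% of each factor's peaks the difference was -1.14 points, with an interval of -3.37 to 1.09 that includes 0. At 400 to 1000 bp Ser2P lay at 44.4% of regions with both, 20.3% with M1BP alone and 6.14% with GAF alone. Many regions with Ser2P had no Rpb3 peak, namely 323 of 608 with both, 478 of 876 with M1BP alone and 120 of 417 with GAF alone.

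The Polycomb proteins followed the same order as Ser2P over all regions. dRing, of PRC1, lay at 47.0% (44.3 to 49.8%) of regions with both, 23.4% (22.1 to 24.7%) with M1BP alone and 16.7% (15.5 to 17.9%) with GAF alone, where 3.83% of bins held a dRing peak. E(z), of PRC2, lay at 64.6% (62.0 to 67.2%) of regions with both, 34.7% (33.3 to 36.1%) with M1BP alone and 23.6% (22.3 to 24.9%) with GAF alone, where 5.32% of bins held an E(z) peak. The 2 proteins were found together at 43.4% of regions with both, 19.3% with M1BP alone and 10.4% with GAF alone, beside 2.67% of bins. M1BP alone exceeded GAF alone by 6.72 points (5.01 to 8.42) for dRing and by 11.1 points (9.16 to 13.0) for E(z). Among the higher-scoring 50% of each factor's peaks both signs turned, to -4.76 points (-7.18 to -2.34) for dRing and -4.31 points (-7.05 to -1.58) for E(z). At 400 to 1000 bp dRing lay at 51.5% of regions with both, 21.9% with M1BP alone and 14.8% with GAF alone, and E(z) at 65.2%, 34.2% and 17.0% of the same classes.

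Many GAF regions had no partner at all. No peak of Rpb3, Ser2P, dRing or E(z) lay at 5.57% (4.40 to 6.94%) of regions with both factors, 14.4% (13.3 to 15.5%) with M1BP alone and 43.6% (42.1 to 45.2%) with GAF alone, where 83.5% of bins had none. Rpb3 was the only partner at 20.1% of regions with both, 40.7% (39.2 to 42.2%) with M1BP alone and 23.1% (21.8 to 24.4%) with GAF alone, which made it the commonest content of regions with M1BP alone. All 4 partners met at 9.18% of regions with both, 2.13% with M1BP alone and 2.17% with GAF alone.

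**Figure D2:**
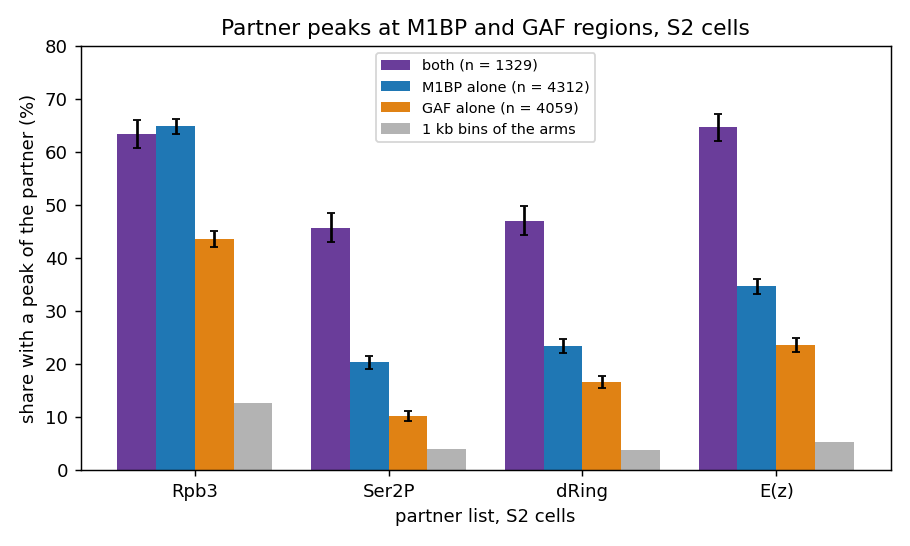
Share of regions (y axis, %) that hold a peak of Rpb3, Ser2P, dRing or E(z) in S2 cells (x axis), for regions with both factors, M1BP alone and GAF alone and for 1 kb bins of the arms. Bars give the share and error bars its exact Clopper-Pearson 95% interval; for Rpb3 the shares are 63.4%, 64.9% and 43.6%, while for the other 3 partners the regions with both factors are the highest.

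Partner shares moved with the score of the factor's own peak. Rpb3 was more frequent in each successive score group for both factors, when each class was split by its own score into 4 groups of about equal size. At M1BP alone it lay on 48.1%, 58.0%, 70.3% and 83.1% of regions from the lowest to the highest group, and at GAF alone on 28.3%, 35.6%, 47.5% and 62.9%. Ser2P was less frequent in each successive M1BP score group, at 25.8%, 23.3%, 18.0% and 14.2%, and more frequent in each successive GAF score group, at 4.73%, 7.75%, 11.0% and 17.6%. dRing lay on 26.3%, 28.1%, 26.2% and 13.0% of M1BP regions by group and on 10.4%, 13.9%, 18.3% and 24.0% of GAF regions.

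E(z) showed the widest crossing. It lay on 33.5%, 35.3%, 42.5% and 27.6% (24.9 to 30.3%) of regions with M1BP alone, and on 10.3%, 14.3%, 24.6% and 45.2% (42.1 to 48.3%) of regions with GAF alone. In the highest score group GAF regions thus held E(z) more often than M1BP regions did, and in the lowest less often. Stronger peaks were also wider, since the higher-scoring 50% had median widths of 653.5 bp for M1BP alone and 891 bp for GAF alone, so score and width were not separated here. With M1BP alone, the 343 regions with Ser2P, dRing and E(z) but no Rpb3 lay mostly among the weaker peaks. Their median M1BP score was 28.6 (26.4 to 31.5), against 69.7 (66.2 to 73.1) for the others. With both factors the 2 medians were close, at 47.5 (42.5 to 51.8) and 51.0 (47.3 to 57.2). Without the regions with that combination, Ser2P lay on 12.5%, 13.3%, 14.6% and 13.2% of the score groups of M1BP alone, so its decline with M1BP score was not seen. All of them hold Ser2P by definition, so leaving them out lowers the share most in the low score groups. The flat order is therefore not a separate result. dRing then lay on 13.1%, 18.8%, 23.1% and 12.01% of the M1BP score groups and E(z) on 21.6%, 26.8%, 40.1% and 26.7%. At GAF alone the shares without them still increased with score for Ser2P (4.07% to 17.2%), dRing (9.82% to 23.7%) and E(z) (9.72% to 45.0%), between the lowest and highest groups.

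**Figure D3:**
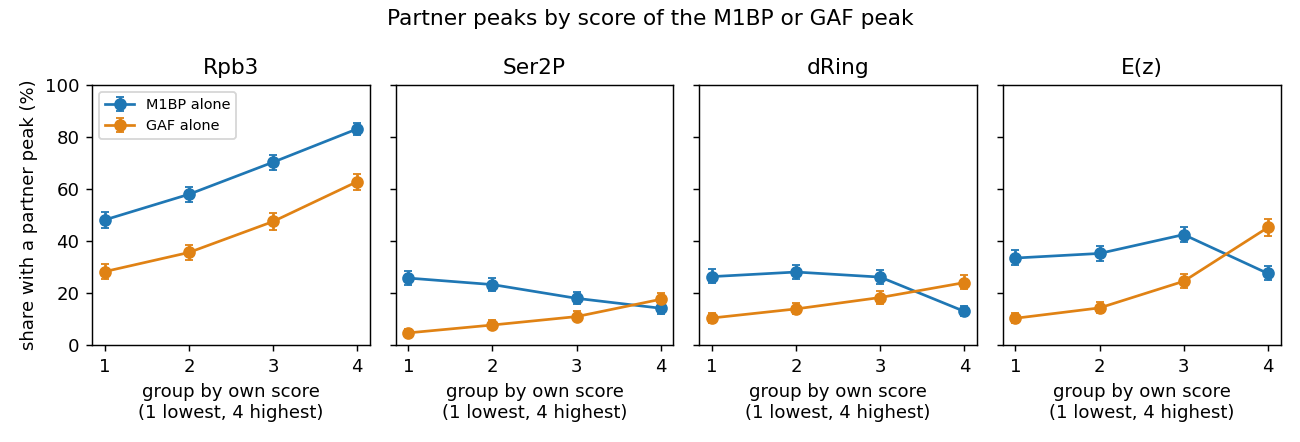
Share of regions (y axis, %) with a peak of each of the 4 partners, by the region's own M1BP or GAF score in 4 groups of about equal size (x axis, 1 lowest and 4 highest), for M1BP alone in blue and GAF alone in orange. Points are shares with exact Clopper-Pearson 95% intervals; the Rpb3 lines run apart throughout, while the lines of the other 3 partners cross before the highest score group.

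The signs differed among regions that already held Rpb3, 843 with both factors, 2798 with M1BP alone and 1768 with GAF alone. There E(z) lay at 56.0% (52.6 to 59.4%) of regions with both, 26.0% (24.4 to 27.7%) with M1BP alone and 36.5% (34.3 to 38.8%) with GAF alone. dRing lay at 33.6%, 13.5% and 20.2% of the same classes, and Ser2P at 33.8%, 14.2% and 16.8%. M1BP alone therefore differed from GAF alone by -10.5 points (-13.3 to -7.75) for E(z), -6.70 points (-8.99 to -4.47) for dRing and -2.57 points (-4.77 to -0.431) for Ser2P.

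Those Rpb3 regions were of unequal width, with a median of 552 bp (539 to 570) for M1BP alone and 839 bp (809 to 873) for GAF alone. At 400 to 1000 bp, E(z) lay at 27.6% of Rpb3 regions with M1BP alone and 24.4% with GAF alone, a difference of 3.23 points (-0.318 to 6.68). Over 1000 bp it lay at 29.6% (24.9 to 34.6%) of 358 regions with M1BP alone and 57.7% (53.9 to 61.4%) of 695 regions with GAF alone. For Ser2P the difference at 400 to 1000 bp was 3.30 points (0.642 to 5.82), and for dRing it was -1.14 points (-4.09 to 1.70). The higher E(z) share at GAF regions with Rpb3 was thus found in the wide regions, which made up 12.8% of the Rpb3 regions with M1BP alone and 39.3% of those with GAF alone.

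Regions without Rpb3 differed more between the classes. There E(z) lay at 79.6% (75.8 to 83.1%) of 486 regions with both factors, 50.7% (48.2 to 53.3%) of 1514 with M1BP alone and 13.6% (12.2 to 15.1%) of 2291 with GAF alone. dRing lay at 70.4%, 41.6% and 13.9% of the same regions, and Ser2P at 66.5%, 31.6% and 5.24%. These sets include the regions with Ser2P, dRing and E(z) but no Rpb3, which hold Polycomb peaks by definition. Without them E(z) lay at 50.5% (43.4 to 57.6%) of 200 regions with both, 36.3% (33.5 to 39.1%) of 1171 with M1BP alone and 11.9% (10.6 to 13.3%) of 2246 with GAF alone. dRing then lay at 28% (21.9 to 34.8%), 24.5% (22.1 to 27.1%) and 12.2% (10.9 to 13.6%) of the same classes, and Ser2P at 18.5%, 11.5% and 3.34%. The gaps between the classes were then smaller, and for dRing the difference of both minus M1BP alone, 3.49 points, had an interval of -2.81 to 10.5 that includes 0.

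Seen from the polymerase, most Rpb3 peaks had at least 1 of the factors. Of 9314 Rpb3 peaks on the arms, 9.39% touched both factors, 32.3% (31.3 to 33.2%) touched M1BP alone, 22.1% (21.2 to 22.9%) touched GAF alone and 36.3% (35.3 to 37.2%) touched neither. Of 1 kb bins of the arms, 7.44% held M1BP, 8.06% held GAF and 1.92% held both. The median Rpb3 score was 91.6 (84.1 to 97.0) with both, 62.3 (60.0 to 65.2) with M1BP alone, 55.9 (50.4 to 62.1) with GAF alone and 24.0 (23.0 to 25.1) with neither. Median widths of these Rpb3 peaks ran in the same order, at 849, 657, 586 and 533 bp. Of the 875 Rpb3 peaks that touched both factors, 42 (4.8%) joined M1BP and GAF peaks that did not themselves overlap. Ser2P peaks had a median width of 2072 bp (1873 to 2683) with both, 940 bp (818 to 1154) with M1BP alone, 319 bp (299 to 384) with GAF alone and 573 bp (468 to 657) with neither. A wider Rpb3 or Ser2P peak can meet both factors more readily, and what these shares, scores and widths owe to that was not tested.

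Among peaks that overlapped Rpb3, GAF centres lay nearer to the Rpb3 centre than M1BP centres did. At Rpb3 regions with M1BP alone the M1BP centre lay a median of 232 bp (221.5 to 242.5) from the nearest Rpb3 centre, and at those with GAF alone the GAF centre lay 144.25 bp (134.5 to 155) away. Within 100 bp of an Rpb3 centre lay 22.8% (21.3 to 24.4%) of these M1BP peaks and 37.3% (35.0 to 39.6%) of these GAF peaks. In 663 overlapping pairs with Rpb3 and with centres over 100 bp apart, M1BP was the nearer of the pair in 283, or 42.7% (38.9 to 46.6%). Peak widths and scores were not matched in these comparisons. Rpb3 peaks had a median width of 657 bp with M1BP alone and 586 bp with GAF alone. The factor regions with Rpb3 went the other way, at 552 bp for M1BP alone and 839 bp for GAF alone. What the distances owe to width was not tested. Orientation relative to a gene was not analysed here.

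Along the arms each factor kept company with itself. The nearest M1BP peak to an M1BP peak lay a median of 3310 bp away (3223.5 to 3430.5), with 63.4% within 5 kb, and the nearest GAF peak to a GAF peak lay 3620.5 bp away (3424.5 to 3752.5), with 58.5% within 5 kb. M1BP peaks that overlapped no GAF peak lay a median of 7964.5 bp (7614 to 8320.5) from the nearest GAF peak, with 35.5% within 5 kb. GAF peaks that overlapped no M1BP peak lay 8465 bp (8039 to 8959.5) from the nearest M1BP peak, with 33.9% within 5 kb. Leaving out the overlapping peaks removes the shortest distances between the factors, so these medians are not like for like with those within a factor.

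The order of regions showed the same grouping. The next region along the arm was again M1BP alone after 57.1% (55.6 to 58.6%) of M1BP regions, where M1BP alone made up 44.5% of all regions. It was again GAF alone after 57.0% (55.5 to 58.6%) of GAF regions, where GAF alone made up 41.8%. After regions with both it was again both in 20.2% (18.1 to 22.5%), where such regions made up 13.7%.

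The longest run of M1BP alone held 15 neighbouring regions at 2L 10362370 to 10423544, of which 11 had Rpb3, 6 E(z), 3 Ser2P and 3 dRing. Runs of 14 M1BP regions lay at 2R 19769756 to 19864982 and 2R 19921176 to 19987057, with Rpb3 in 13 and 12 of the 14. The longest run of GAF alone held 20 regions over 147 kb at 2R 7356650 to 7504101, of which 11 had Rpb3, 8 dRing, 6 E(z) and 0 Ser2P. Further GAF runs held 16 regions at 3L 10732040 to 10846621, with Rpb3 in 4, and 15 regions at 3L 17906989 to 17970394, with Rpb3 in 6. Over their whole classes Rpb3 lay at 64.9% of regions with M1BP alone and 43.6% with GAF alone, and these few runs are given as examples.

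Each class lay on all 6 arms. Regions with M1BP alone ran from 31.8 per Mb on X to 41.3 per Mb on 2R, regions with GAF alone from 28.8 per Mb on chromosome 4 to 35.7 per Mb on 2R, and regions with both from 7.59 per Mb on chromosome 4 to 12.2 per Mb on 2R and 3L. GAF alone was the denser class on 3L and X, and M1BP alone on the other 4 arms. X held 16.5% (14.5 to 18.6%) of regions with both, 16.5% (15.4 to 17.7%) with M1BP alone and 18.3% (17.2 to 19.6%) with GAF alone, where X makes up 18.6% of the arms' length. M1BP alone differed from GAF alone by -1.82 points (-3.45 to -0.193) in this share.

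**Figure D4:**
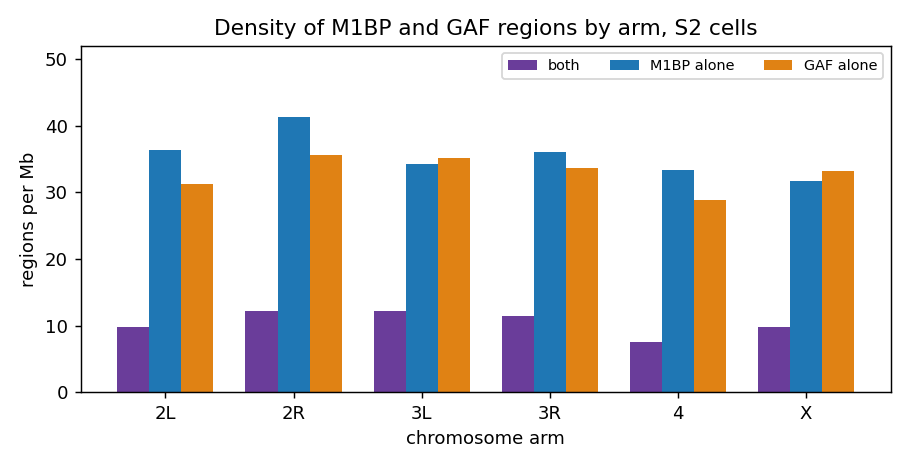
Regions per Mb (y axis) on each chromosome arm (x axis) for regions with both factors, M1BP alone and GAF alone, with arm length taken as the largest peak end in any S2 list. Bars are counts divided by length and carry no error; M1BP alone spans 31.8 to 41.3 per Mb and GAF alone 28.8 to 35.7 per Mb.

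The regions with Ser2P, dRing and E(z) but no Rpb3 numbered 674, at 21.5% (19.3 to 23.8%) of regions with both factors, 7.95% (7.16 to 8.80%) with M1BP alone and 1.11% (0.810 to 1.48%) with GAF alone, where 1.13% of bins held that combination. They stood apart in the lists of S2-AbdA cells, which the choice of regions had not used. Among regions with both factors, a GAF peak was also present in S2-AbdA cells at 3.85% (1.94 to 6.78%) of the 286 with this combination and at 83.0% (80.6 to 85.3%) of the 1043 others, where 12.1% of bins held a GAF peak of that line. M1BP went the other way, recurring at 95.5% (92.4 to 97.6%) of the 286 and 73.3% (70.5 to 75.9%) of the others, where 6.61% of bins held an M1BP peak of that line.

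Regions with 1 factor gave the same order. M1BP alone recurred as M1BP at 92.7% (89.4 to 95.2%) of 343 regions with the combination and 80.5% (79.3 to 81.7%) of 3969 others. GAF alone recurred as GAF at 22.2% (11.2 to 37.1%) of 45 regions with the combination and 82.9% (81.7 to 84.0%) of 4014 others. Without the 674 regions, which by their definition hold Ser2P, dRing and E(z) and lack Rpb3, 21.7% of M1BP peaks overlapped GAF and 20.8% of GAF peaks overlapped M1BP. M1BP alone then differed from GAF alone by 26.5 points for Rpb3, 4.16 points for Ser2P, 1.04 points (-0.584 to 2.65) for dRing and 6.30 points for E(z), and the interval of the dRing difference includes 0. Rpb3 then lay at 80.8% of regions with both, 70.5% with M1BP alone and 44.0% with GAF alone.

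The S2-AbdA GAF list held 0.609% of its peaks off the arms, against 23.7% for S2 GAF, 23.1% for S2-AbdA M1BP and 20.1% for S2 M1BP. Among the partner lists of S2 cells the share off the arms was 0.598% for Rpb3, the list whose absence defines the combination, 61.2% for Ser2P, 37.4% for dRing and 34.9% for E(z), all under input code B. The S2-AbdA GAF samples carry input code C and the S2-AbdA M1BP samples code D, so line and input code cannot be told apart for the recurrence of either factor.

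**Figure D5:**
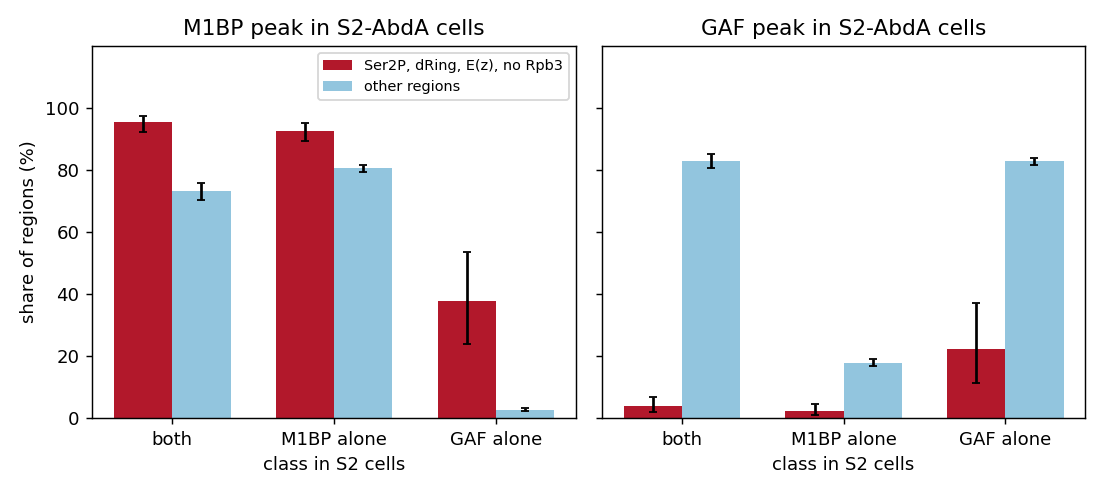
Share of S2 regions (y axis, %) that overlap an M1BP peak (left panel) or a GAF peak (right panel) of S2-AbdA cells, by class in S2 cells (x axis). Red bars are regions with Ser2P, dRing and E(z) but no Rpb3, blue bars the other regions, and error bars exact Clopper-Pearson 95% intervals; at regions with both factors GAF recurs at 3.85% of the red and 83.0% of the blue regions.

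Over whole classes, regions with both factors recurred as M1BP at 78.0%, as GAF at 66.0% and as both at 48.5% (45.7 to 51.2%). M1BP alone recurred as M1BP at 81.5% and held a GAF peak of S2-AbdA cells at 16.7%. GAF alone recurred as GAF at 82.2% and held an M1BP peak of S2-AbdA cells at 3.20%. Among regions whose S2 factors all recurred, Rpb3 lay at 84.9% (81.9 to 87.6%) of 644 with both, 66.7% (65.1 to 68.3%) of 3514 with M1BP alone and 46.2% (44.5 to 47.9%) of 3337 with GAF alone. E(z) lay at 53.4% (49.5 to 57.3%) with both, 38.4% (36.8 to 40.0%) with M1BP alone and 24.2% (22.7 to 25.7%) with GAF alone. In recurring regions Rpb3 was therefore more frequent with both factors than with M1BP alone, which was not so over all regions. The filter did not act evenly on the regions with Ser2P, dRing and E(z) but no Rpb3. Of the 644 regions with both, 636 lay outside that combination, while 318 of the 3514 with M1BP alone held it. Since these regions lack Rpb3 by definition, the change of order is not a separate result about recurrence.

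Single regions show how the partners combined. Among regions with both factors, the best by the worse of the 2 ranks was X 19576683 to 19578223 (M1BP score 303, GAF score 309), with E(z) as its only partner and neither factor recurring in S2-AbdA cells. The regions at X 10219124 to 10220739 (M1BP 338, GAF 278), X 11283366 to 11284799 (M1BP 296, GAF 273) and 3R 8876866 to 8878450 (M1BP 280, GAF 260) each had Rpb3 as their only partner, and both factors recurred there. At 2R 12472910 to 12474014 (M1BP 276, GAF 329) E(z) was the only partner and neither factor recurred. Over all regions with both factors, Rpb3 was the only partner at 20.1% and E(z) at 2.56%, and neither factor recurred at 4.44%. These 5 regions are thus examples and do not stand for the class.

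The highest M1BP score of regions with M1BP alone was 388, at 2L 20449481 to 20450656, with Ser2P and E(z). It was followed by X 16544906 to 16545589 (score 380, E(z)), 3R 17211634 to 17212257 (score 378, dRing and E(z)), 4 1234259 to 1234806 (score 378, Rpb3 and E(z)) and X 10658027 to 10658707 (score 371, Rpb3 and Ser2P). All 5 recurred as M1BP and none held GAF in S2-AbdA cells, where the shares over the class were 81.5% and 16.7%. Rpb3 lay at 2 of the 5, but at 83.1% of the highest of the 4 M1BP score groups. These 5 are thus examples and do not stand for the strongest M1BP regions.

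The highest GAF score of regions with GAF alone was 417, at X 3344854 to 3345880, with E(z). It was followed by X 12364066 to 12364794 (score 396, E(z)), 3L 19723998 to 19725150 (score 379, E(z)), 3R 7022409 to 7024374 (score 378, Rpb3, dRing and E(z)) and X 2683445 to 2684666 (score 377, Rpb3). E(z) lay at 4 of the 5, and at 45.2% of the highest of the 4 GAF score groups. As GAF, 4 of the 5 recurred, the exception being the region on 3L, where 82.2% of the class did.

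The widest regions were of mixed content. With both factors they were X 2188070 to 2203880 (15811 bp) and 2L 244143 to 251369 (7227 bp), each with all 4 partners, and 2R 18467875 to 18475328 (7454 bp), with Ser2P, dRing and E(z) but no Rpb3. With M1BP alone they were 2L 6876734 to 6883106 (6373 bp), 3R 1572712 to 1579077 (6366 bp) and 2R 14463252 to 14469513 (6262 bp), which all held Ser2P and E(z) and no Rpb3. Among the 548 regions with M1BP alone over 1000 bp, Rpb3 lay at 65.3%, Ser2P at 42.5% and E(z) at 47.4%. With GAF alone, 2 of the 3 began at the first base of their arm, namely 3L 1 to 19848 with dRing and 2L 1 to 6145 with dRing and E(z). The third, X 1510577 to 1517806 (7230 bp), held Rpb3, dRing and E(z).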

How the data were processed

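ChIP-seq peak lists of S2 cells were analysed for M1BP, GAF, Rpb3, Ser2P, dRing and E(z), with the M1BP and GAF lists of S2-AbdA cells for recurrence. Per the submitters' processing notes, reads were aligned with BWA 0.7.12 and MACS2 was run, on build dm3. The sources used here do not give the peak settings or how the 2 replicates were combined. Each deposited peak carries a score of unstated unit. Largest peak ends (27898841 on 3R) differ from Release 6 (32079331), so no gene or sequence was assigned.

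Overlap was 1 bp or more, coordinates are 1-based, and arm length was the largest end in any S2 list. Analyses used Python 3.11.15, numpy 2.4.6, pandas 2.3.3, scipy 1.17.1 and matplotlib 3.10.9. Overlap code was tested on simulated data and compared with bedtools 2.31.1, where 0 of 30 counts differed. Named regions were, per class, the 5 best by score rank and the 3 widest, plus the 3 longest runs of each factor alone. Classes, lists and rules were chosen with earlier results of these data known. The combination of Ser2P, dRing and E(z) without Rpb3, recurrence in S2-AbdA cells and the comparison within Rpb3 regions were chosen after seeing the data. Other overlap rules, score limits, widths and chromosome sets were tried as alternatives.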

Additional observations from a re-analysis of the deposited data

How the results depend on the processing

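No paired analysis was possible because each antibody has 1 list for both replicates, so no replicate could be left out either. The cause of the changes below was not tested. With the higher-scoring 50% of the M1BP and GAF lists, 11.4% of M1BP and 12.1% of GAF peaks overlapped, and 323 regions held both, 2534 M1BP alone and 2378 GAF alone, with median widths of 1446, 653.5 and 891 bp and a centre distance of 350.5 bp. M1BP alone then differed from GAF alone by 17.1 points for Rpb3, -1.14 for Ser2P, -4.76 for dRing and -4.31 for E(z), and within Rpb3 regions by -7.70 for Ser2P, -10.4 for dRing and -17.7 for E(z). With the higher-scoring 50% of each partner list the same differences were 17.9 for Rpb3 and 7.57 for Ser2P, and within Rpb3 regions 0.621 for dRing and -4.14 for E(z). In regions of 400 to 1000 bp they were 31.8 for Rpb3, 14.1 for Ser2P and 17.2 for E(z), and within Rpb3 regions 3.30 for Ser2P, -1.14 for dRing and 3.23 for E(z). A window of 250 bp on each side of the region centre gave 13.0 for E(z), and within Rpb3 regions -0.0986 for Ser2P, -3.97 for dRing and -6.96 for E(z). Requiring 50% of the shorter interval to overlap gave 18.0 for Rpb3. Recurring regions gave 12.4 for Ser2P and 14.2 for E(z). Without the regions with Ser2P, dRing and E(z) but no Rpb3, overlaps were 21.7% of M1BP and 20.8% of GAF peaks, differences were 26.5 for Rpb3, 4.16 for Ser2P, 1.04 for dRing and 6.30 for E(z), median widths were 1131 bp with both and 485 bp with M1BP alone, and the centre distance was 244.5 bp. With all chromosomes, overlaps were 28.8% of M1BP and 28.2% of GAF peaks, differences were 12.6 for Ser2P, 9.40 for dRing and 15.8 for E(z), and median widths were 823 bp with both and 570 bp with GAF alone. Centres within 250 bp gave 14.0% of M1BP and 14.9% of GAF peaks and 803 regions with both, and lists of equal length gave 23.3% of GAF peaks. The Rpb3 difference was positive under every alternative tried. The shares of regions with both moved beyond their counting interval in 29 recomputed values and stayed within it in 11. Rpb3 ran from 43.0% (all chromosomes) to 84.9% (recurring regions), Ser2P from 30.9% (without the combination) to 63.1% (all chromosomes), dRing from 30.2% (higher-scoring 50% of each partner list) to 62.9% (all chromosomes) and E(z) from 43.6% (higher-scoring 50% of each partner list) to 75.7% (all chromosomes). Of the differences, overlaps, widths and counts recomputed, 61 stayed within their counting interval or, for counts, within 1.5 times. Another 47 moved further and 6 changed sign. Read depth is unknown, so absence of a peak is not absence of binding.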

Other observations

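Off the arms, on heterochromatic and unplaced sequence left out of the comparison, a larger share of each factor's peaks overlapped the other. The share of that sequence that holds a peak of each list was not computed. No background therefore stands beside the shares in this paragraph, and how far they exceed one is unknown. GAF lay on 45.5% (42.9 to 48.1%) of 1438 M1BP peaks there, and M1BP on 38.7% (36.3 to 41.0%) of 1676 GAF peaks. These peaks formed 2459 regions, of which 647 held both factors, 784 M1BP alone and 1028 GAF alone. Peak centres of overlapping pairs lay a median of 23.5 bp apart (21 to 26). Rpb3 lay at 1.08% of regions with both, 1.53% with M1BP alone and 0.292% with GAF alone. Ser2P, dRing and E(z) without Rpb3 were found together at 93.8% (91.7 to 95.5%) of regions with both, 59.9% (56.4 to 63.4%) with M1BP alone and 18.3% (16.0 to 20.8%) with GAF alone. The same combination on the arms, described above, shared the short centre distance. Whether the arm regions with it have a technical or a biological source was not tested.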
